A study of Capra hircus with 5 samples.

Results

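The unigenes of DUSP2 and RPS6KA1 are 2 of the 118211 assembled transcripts measured in longissimus muscle of normal and ovariectomized goats, and 2 of the 22 unigenes for which the study designed qRT-PCR primers. A unigene is a transcript assembled from the reads without a genome. The members were chosen by their symbols in that primer list, which pairs DUSP2 with comp12302_c0_seq1 (940 bp) and RPS6KA1 with comp19927_c0_seq1 (2662 bp). The study had taken the genes of the list from those it called different between the same 5 libraries, so the difference between normal and ovariectomized ewes had chosen the members. Its fitted values and p-values are given below as a description of the members and are no independent test of them.

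Female kids of the cross between Boer bucks and Guan Zhong dairy does, of similar body weight and on the same fodder, entered the experiment at about 5 months old. The control group consisted of 2 untreated ewes (control 1 and control 3) and the treatment group of 3 ewes whose ovaries were removed at the start (ovariectomized 2, 4 and 5), and all were slaughtered on day 50. A further animal, by the group sizes a control ewe, gave no library because its sample failed the quality requirements. The muscle, which the sample labels name Longissimus thoracis, gave 1 polyA RNA library per animal. The animals were hybrids, so the ewes of a group were not genetically alike. In such whole muscle RNA, fewer cells of a type and less RNA per cell cannot be told apart.

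The extracellular signal-regulated kinase (ERK) pathway carries growth factor and cytokine signals from receptors through the small GTPase Ras and a chain of protein kinases to ERK, which enters the nucleus. RPS6KA1 encodes RSK1, a serine/threonine kinase that ERK docks on and activates and that phosphorylates ribosomal protein S6 and transcription factors. DUSP2, also called PAC-1, encodes a nuclear dual specificity phosphatase that removes the activating phosphates from ERK and other mitogen-activated protein kinases (MAPK), and it is best known as an immediate early gene of activated lymphocytes. The members therefore stand on opposite sides of ERK, a phosphatase that ends its activity and a kinase that carries its signal on. In skeletal muscle the pathway takes part in myoblast proliferation and in the response to contraction.

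The link from unigene to symbol is the study's, which compared the sequences of its candidate genes with NCBI reference RNA by BLAST. It was not checked here. The primers are the only sequences of the members used here and are printed 5′ to 3′, in lower case throughout because no part of them is singled out.
DUSP2 forward: taactttccagcgtcaacacag
DUSP2 reverse: tggactctacaccctcgact
RPS6KA1 forward: ttggctccttttctgttctgt
RPS6KA1 reverse: ggactgctcgatctgactgc
The primers were 20 to 22 bases long with a GC content between 42.9% and 60.0%. Each member was the sole unigene of its assembly component, as in 92.8% of the 100867 components, so no second unigene of the same component could share its reads. Other components were not searched for further pieces of the same genes. The unigene of DUSP2 was longer than or as long as 75.1% of all unigenes and that of RPS6KA1 longer than or as long as 91.2%. In RefSeq's table for the goat assembly ARS1.2, DUSP2 lies between ASTL and STARD7 and RPS6KA1 between HMGN2 and ARID1A among protein-coding genes, on different chromosomes. The positions of the unigenes themselves were not analysed here.

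Between 36738470 and 39504529 reads were counted per library, and the number of unigenes with at least 1 read ran from 70704 in ovariectomized 5 and 81922 in control 3 to 91215 in ovariectomized 4, 99397 in control 1 and 100053 in ovariectomized 2. Control 3 and ovariectomized 5 thus had the fewest unigenes detected, and the 100 most abundant unigenes took 51.0% and 51.9% of their reads against 45.7% to 47.8% in the other libraries. The TMM factors of edgeR, which rescale each library for such differences in composition, were 0.81 in ovariectomized 5, 0.87 in control 3, 1.07 in ovariectomized 4, 1.10 in control 1 and 1.20 in ovariectomized 2. Of the muscle, lymphocyte and fat markers chosen for checking the tissue, only TNFRSF18, TCF7 and CSF2 are paired with a unigene. MUSK, a receptor kinase of muscle in the primer list, was not among these markers, and the identity of the muscle was not checked here.

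The DUSP2 unigene had more reads in every ovariectomized ewe than in either control ewe. Its count was 43 (control 1) and 44 (control 3) in the normal ewes, against 89, 122 and 117 in ewes 2, 4 and 5 of the ovariectomized group. The control libraries were nearly equal, the groups did not overlap, and ovariectomized 2 was the lowest of its group. As RPKM, the count scaled to the length of the unigene and to the total of the library, these were 1.16 and 1.24 for the normal ewes and 2.48, 3.35 and 3.39 for the ovariectomized ones, in the same order. The mean RPKM was 1.20 ± 0.0558 (SD, n = 2) in normal ewes and 3.08 ± 0.512 (SD, n = 3) in ovariectomized ewes, a ratio of 2.57. Over the 6 pairs of a control and an ovariectomized library the ratio of RPKM values ran from 2.01 to 2.93.

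The RPS6KA1 unigene was also higher in every ovariectomized ewe. Its count was 89 (control 1) and 71 (control 3) in the normal ewes, against 207, 170 and 129 in ewes 2, 4 and 5 of the ovariectomized group. Here ovariectomized 2 was the highest and ovariectomized 5 the lowest of the treatment group, and the groups again did not overlap. These corresponded to RPKM values of 0.846 and 0.705 for the normal ewes and of 2.04, 1.65 and 1.32 for the ovariectomized ones. The mean RPKM was 0.776 ± 0.10 (SD, n = 2) in normal ewes and 1.67 ± 0.361 (SD, n = 3) in ovariectomized ewes, a ratio of 2.15, and the ratio over the 6 pairs of libraries ran from 1.56 to 2.89.

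**Figure D1:**
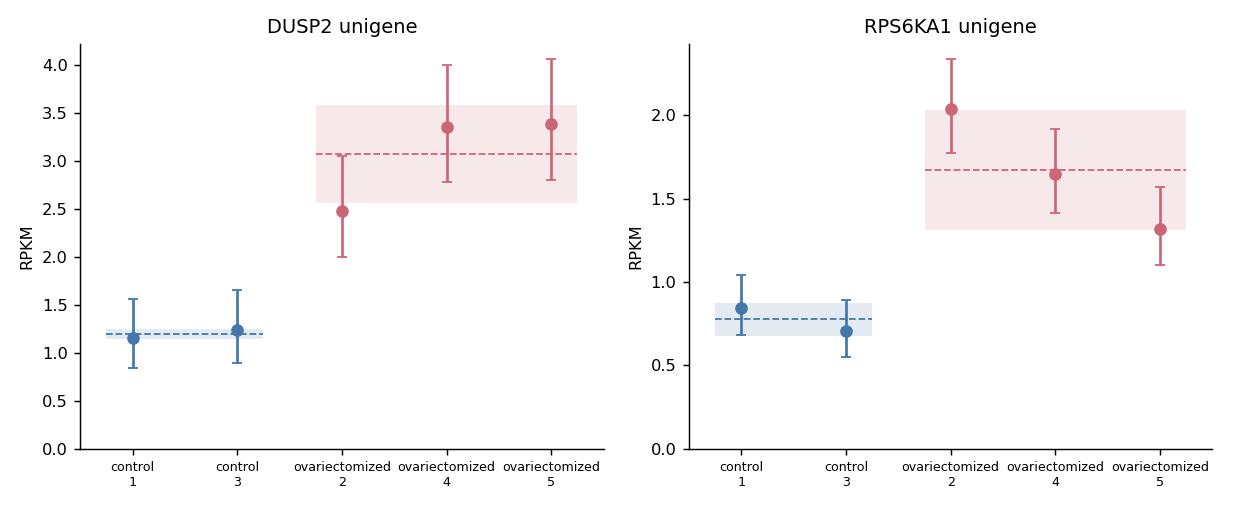
RPKM of the DUSP2 unigene (left) and the RPS6KA1 unigene (right) in each of the 5 libraries, with exact Poisson 95% intervals of the count as bars, group means as dashed lines and 1 SD on either side as shading. For DUSP2 the ovariectomized ewes lie between 2.48 and 3.39 and the control ewes between 1.16 and 1.24, and for RPS6KA1 between 1.32 and 2.04 against 0.705 and 0.846.

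Counting error set a floor under these values. The exact Poisson 95% interval of the DUSP2 count, which covers counting error only, was 31.1 to 57.9 reads in control 1 and 32.0 to 59.1 in control 3, and it began at 71.5 reads in ovariectomized 2, the lowest of its group. For RPS6KA1 the interval was 71.5 to 110 reads in control 1 and 108 to 153 reads in ovariectomized 5, so the nearest libraries of the 2 groups overlapped narrowly in reads. Scaled to RPKM, the interval ended at 1.04 in control 1 and began at 1.10 in ovariectomized 5, without overlap. The control counts of DUSP2 differed by less than counting alone would give (coefficient of variation 1.63% against 15.2% from counting), so their closeness in 2 libraries is no measure of the spread between ewes. In the ovariectomized ewes the coefficient of variation of the count was 16.3% for DUSP2 and 23.1% for RPS6KA1, against 9.56% and 7.70% from counting.

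From the counts, edgeR's quasi-likelihood fit with TMM factors over the 39543 unigenes kept by its filter on low counts (filterByExpr) gave a log2 fold change, ovariectomized minus control, of 1.33 for DUSP2 (standard error 0.45) and 1.03 for RPS6KA1 (standard error 0.33). In this fit 0 unigenes of 39543 (0%) had an adjusted p under 0.05, neither member among them, and the edgeR adjusted p was 1.0 for each. At an unadjusted p under 0.05 the edgeR fit had 339 unigenes (0.857%), both members among them. With control 1 or control 3 left out neither member was below this limit, as the unadjusted edgeR p was then 0.128 and 0.0542 for DUSP2 and 0.106 and 0.0907 for RPS6KA1. At an adjusted p under 0.05 DESeq2 had 26 unigenes and limma had 2 with a pseudocount of 0.1 and 3 with a pseudocount of 1, in each case without the members. When every unigene with at least 1 read was fitted in edgeR, 527 of 118211 (0.446%) had an adjusted p under 0.05, and again neither member was among them. A fitted log2 fold change above 1 was reached by 3.74% of the unigenes tested, and the middle 90% of the fold changes lay between -0.72 and 0.88 on the log2 scale with a median of 0.02. All 3 ovariectomized libraries lay above both control libraries in RPKM for 4.85% of the unigenes tested, or 4.72% on the TMM scale, as they did for both members, whose selection had used this difference.

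**Figure D2:**
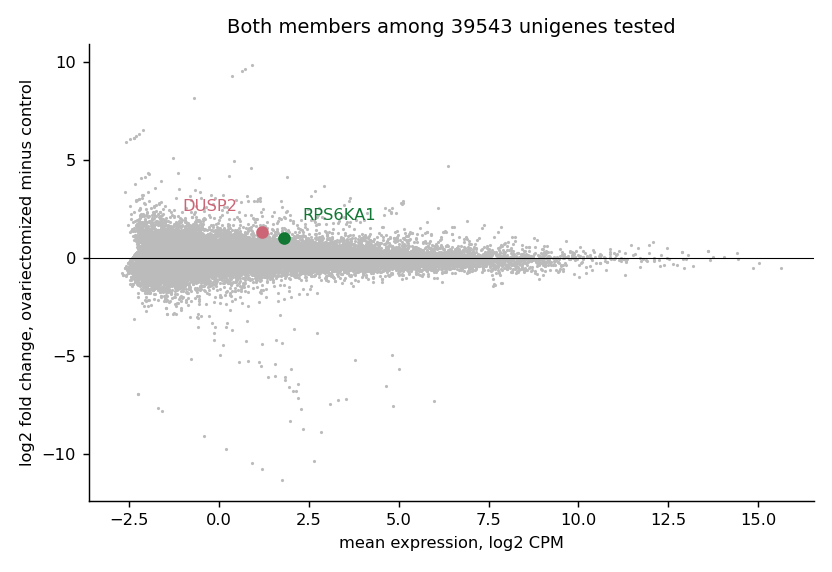
Log2 fold change (ovariectomized minus control) against mean expression (log2 CPM) for the 39543 unigenes tested in edgeR, 1 point each, with DUSP2 in red and RPS6KA1 in green. DUSP2 at 1.33 and RPS6KA1 at 1.03 lie on the upper edge of the dense cloud and not apart from it.

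The choice of scale changed how much the ewes of a group differed. RPKM divides by the total count of a library, whereas the TMM factors also take account of its composition. On the scale of TMM-normalized CPM, the share of a library's reads after that rescaling, RPS6KA1 was at 2.06 and 2.16 CPM in the normal ewes 1 and 3, against 4.51, 4.09 and 4.32 CPM in the ovariectomized ewes 2, 4 and 5. The ovariectomized ewes were then close together, with a coefficient of variation of 4.90% against 21.6% in RPKM, and the ratio over the 6 pairs of libraries ran from 1.90 to 2.19. The 4.90% was less than the 7.70% that counting alone would give, so it is no measure of the spread between ewes. For DUSP2 the ovariectomized ewes moved apart on the TMM scale. DUSP2 was at 0.994 and 1.34 CPM in the normal ewes, against 1.94, 2.94 and 3.92 CPM in the ovariectomized ewes, in the same order. The coefficient of variation in the ovariectomized ewes was 33.8% against 16.7% in RPKM, and the lowest of the 6 ratios between libraries was 1.45 and the highest 3.95. The groups overlapped on neither scale for either member.

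**Figure D3:**
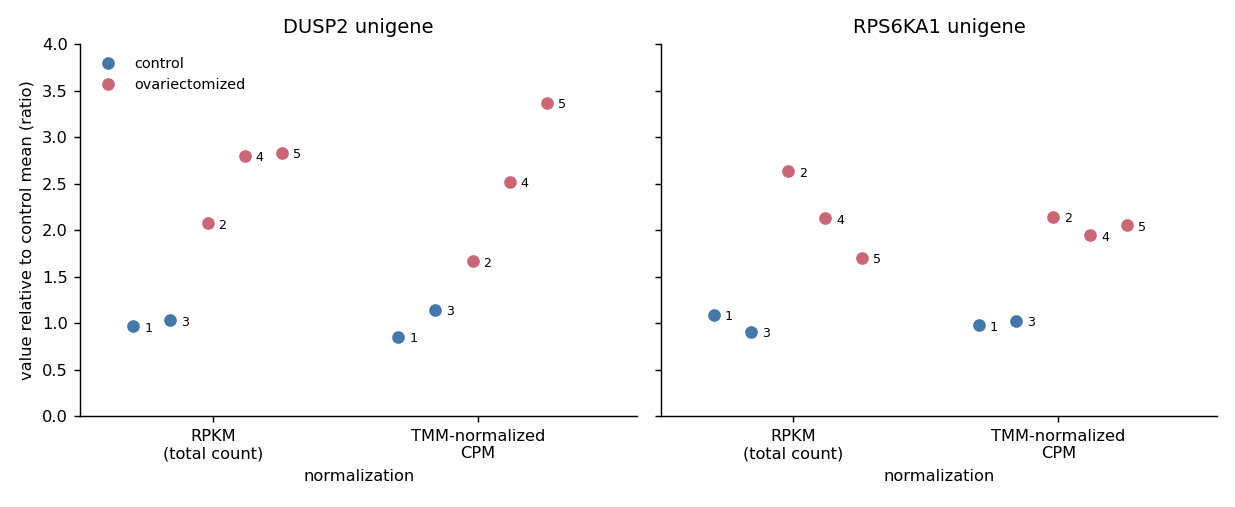
Value of each library divided by the mean of the control libraries, for DUSP2 (left) and RPS6KA1 (right), in RPKM and in TMM-normalized CPM, with the replicate number beside each point. The ovariectomized ewes draw together for RPS6KA1 (coefficient of variation 21.6% in RPKM, 4.90% in CPM) and move apart for DUSP2 (16.7% and 33.8%) when the TMM factors are applied. The 4.90% is below the 7.70% from counting alone.

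The values were also set beside the number of unigenes detected in a library. Within each group the RPKM of RPS6KA1 was higher where more unigenes were detected, from 0.705 (81922 unigenes) to 0.846 (99397 unigenes) in the control ewes and from 1.32 (70704 unigenes) through 1.65 (91215 unigenes) to 2.04 (100053 unigenes) in the ovariectomized ewes, though only the counting intervals of ovariectomized 5 and ovariectomized 2 lay apart. The RPKM of DUSP2 was 1.24 and 1.16 in the control ewes and 3.39, 3.35 and 2.48 in the ovariectomized ewes for the same libraries. Within each group the counting intervals of these values overlapped, so no order of the DUSP2 values could be read from them. The part of library composition in these values was not tested. With the number of detected unigenes as a covariate in edgeR, the log2 fold change was 1.19 for DUSP2 and 1.03 for RPS6KA1. Within control 1, ovariectomized 2 and ovariectomized 4 alone it was 1.30 and 1.06 on the TMM scale, and within control 3 and ovariectomized 5 alone, the libraries with the fewest unigenes, it was 1.55 and 1.0.

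**Figure D4:**
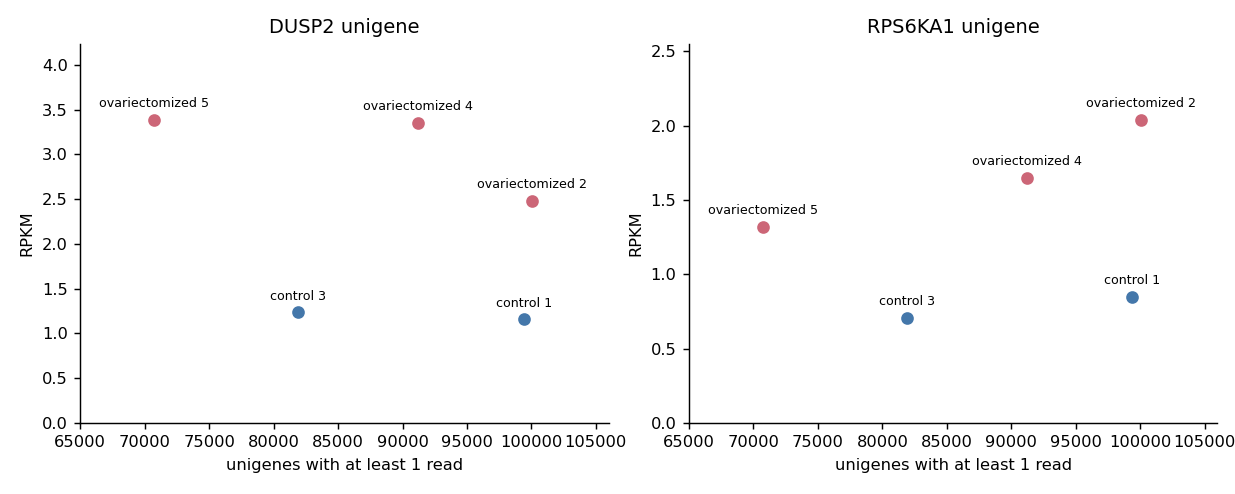
RPKM of DUSP2 (left) and RPS6KA1 (right) against the number of unigenes with at least 1 read in the library, 1 point per library. RPS6KA1 is lowest in its group in control 3 and ovariectomized 5, where DUSP2 is highest in its group by less than counting error, and the ovariectomized ewes lie above the control ewes in both panels.

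In every library DUSP2 had a higher RPKM than RPS6KA1. The ratio of the DUSP2 to the RPS6KA1 RPKM was 1.37 and 1.75 in the normal ewes 1 and 3, against 1.22, 2.03 and 2.57 in the ovariectomized ewes 2, 4 and 5, so the ratio overlapped between the groups. Over all 118211 unigenes DUSP2 lay above 83.2% to 93.0% of the RPKM values of a library and RPS6KA1 above 79.4% to 87.5%. Among the 39543 unigenes tested, which leave out those with few reads, DUSP2 lay above 51.3% and 59.6% of the RPKM values in the normal ewes, and above 67.5%, 75.7% and 79.2% of them in the ovariectomized ewes. RPS6KA1 lay above 41.6% and 45.4% of the values in the normal ewes, and above 62.8%, 61.0% and 62.7% in the ovariectomized ewes. By this rank, which does not depend on how a library is scaled, the ovariectomized ewes lay close together for RPS6KA1 and were spread more widely for DUSP2. The tagwise dispersion of edgeR corresponded to a coefficient of variation between animals of 38.6% for DUSP2 and 31.7% for RPS6KA1, below the median of 43.7% over the unigenes tested.

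Beside the members, 6 unigenes were looked at, taken from the primer list or from MAPK, Ras or JNK terms in the study's annotation. All were chosen by the study on these samples, and their direction is therefore not independent evidence. The study assigns many more unigenes to the MAPK signalling pathway, which were not looked at here. The 6 were RASA2, a GTPase-activating protein that switches Ras off, the calcium channel subunits CACNA1C and CACNA1H, the corepressor NCOR1, which the study's annotation places under the JNK branch, and 2 unigenes without a symbol. None of the 6 was kept by filterByExpr. In mean RPKM 5 were lower and 1 was higher in the ovariectomized ewes, and for none of them did the groups overlap, which held in the lower direction for 5.19% and in the higher direction for 5.01% of all 118211 unigenes. The highest count of any of them in a library was 7 reads. A count of 0 allows up to 3 reads (one-sided limit), and its two-sided exact Poisson interval ends at 3.69 reads. RASA2 was at 5 and 4 reads in the normal ewes 1 and 3, against 1, 1 and 0 in the ovariectomized ewes 2, 4 and 5. In the same order CACNA1H was at 7 and 6 against 3, 0 and 0 reads, and NCOR1 at 5 and 6 against 0, 3 and 2 reads. CACNA1C was at or under 3 reads throughout, as was comp98214_c0_seq1, which is annotated with MAP kinase activity. When every unigene was fitted in edgeR, the unadjusted p of the 6 ran from 0.0768 to 0.307 and none was called. For NCOR1 the unigene shown is 1 of several in its component, and the counts summed over that component differed by -0.05 on the log2 scale with a standard error of 0.32 (edgeR adjusted p = 1.0).

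A nearer relative of DUSP2 by function was comp24717_c0_seq2 (230 bp), the sole unigene listed with DUSP2 under MAP kinase phosphatase activity and under inactivation of MAPK activity. It was at 0 in both normal ewes, against 4, 2 and 3 reads in the ovariectomized ewes 2, 4 and 5. The second unigene of its component, comp24717_c0_seq1 (715 bp), was looked at after its values had been seen, and the files give no annotation for it. Its count was 9 and 5 in the normal ewes, against 24, 26 and 11 in the ovariectomized ewes, and the groups did not overlap. The fitted log2 fold change of 1.47 had a standard error of 0.71 (edgeR adjusted p = 1.0). It was larger than that of DUSP2 (1.33), with a larger error.

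Since DUSP2 is known from lymphocytes, the lymphocyte genes of the primer list were set beside it. TNFRSF18, a receptor of regulatory and activated T cells, was at 5 and 11 reads in the normal ewes 1 and 3, against 25, 17 and 27 in the ovariectomized ewes 2, 4 and 5, and its groups did not overlap. The fitted log2 fold change of 1.46 had a standard error of 0.77 (edgeR adjusted p = 1.0) and depended on the control libraries, with 0.86 without control 1 and 2.38 without control 3. CSF2, a cytokine of activated T cells, was at 0 in both normal ewes, against 2, 2 and 3 reads. TCF7, a transcription factor of naive T cells, was at 3 reads in both normal ewes, against 0, 1 and 0. Of the 3 genes 2 were thus higher and 1 lower in mean RPKM in the ovariectomized ewes, and their summed count was 8 and 14 in the normal ewes, against 27, 20 and 30 in the ovariectomized ewes. All 3 had been chosen by the study on these samples, and their part in the DUSP2 values was not tested.

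Profiles over the 5 libraries were compared by the root mean square difference of log2(RPKM + 0.1) after centring each unigene on its own mean, between each member and the 29934 other unigenes with a mean count of at least 20. Of the primer list 4 genes had this many reads, the members, GSN, which severs actin filaments, and VMO1. The profile of DUSP2 was nearest to GSN (difference 0.147), then VMO1 (0.251) and RPS6KA1 (0.373). In the whole table the nearest was comp54184_c0_seq1 (0.109) and GSN was next, against a median of 0.773 over all unigenes. In the control ewes comp54184_c0_seq1 had only 8 and 9 reads, so the order of these 2 is within counting error. GSN had RPKM values of 66.4 and 67.6 in the normal ewes, against 139, 148 and 149 in the ovariectomized ewes 2, 4 and 5, and its groups did not overlap.

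The profile of RPS6KA1 was nearest to GSN among the genes of the primer list (0.239), then VMO1 (0.285) and DUSP2 (0.373), but 126 unigenes were nearer than GSN and 1403 nearer than DUSP2. The nearest unigenes of the whole table were comp38745_c0_seq1 (0.0711) and comp36968_c0_seq1 (0.0717), against a median of 0.599. The study's annotation of the genes it called on these samples lists the first under the neuromuscular junction. It had RPKM values of 0.962 and 0.724 in the normal ewes 1 and 3, against 1.98, 1.72 and 1.44 in the ovariectomized ewes 2, 4 and 5. All 4 genes of the primer list and comp38745_c0_seq1 had been chosen for a difference between these same libraries, and centring keeps that difference, so their likeness restates it in part. The likenesses also rest on 5 libraries that share their depth and composition, and other unigenes were nearer to each member than the members were to each other. On the TMM scale the nearest unigene of each member was the same, but the second nearest to RPS6KA1 became comp28632_c0_seq2, and 950 in place of 1403 unigenes were nearer to it than DUSP2. On either scale 131 unigenes were nearer to DUSP2 than RPS6KA1 was.

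The fold changes of the members kept their direction under every alternative tried. The groups overlapped on no scale, and the members had been chosen for this difference. Leaving out a library or changing the filter could therefore hardly turn the direction. For DUSP2 the log2 fold change was 1.12 without control 1, 1.55 without control 3, 1.57 without ovariectomized 2, 1.32 without ovariectomized 4 and 1.06 without ovariectomized 5. For RPS6KA1 it was 0.98, 1.05, 1.01, 1.06 and 1.03 in the same order. Leaving out 1 library therefore moved DUSP2 more than RPS6KA1. On the log2(RPKM + 1) scale, whose pseudocount is close to the levels in the normal ewes, the differences were 0.88 and 0.58.

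**Figure D5:**
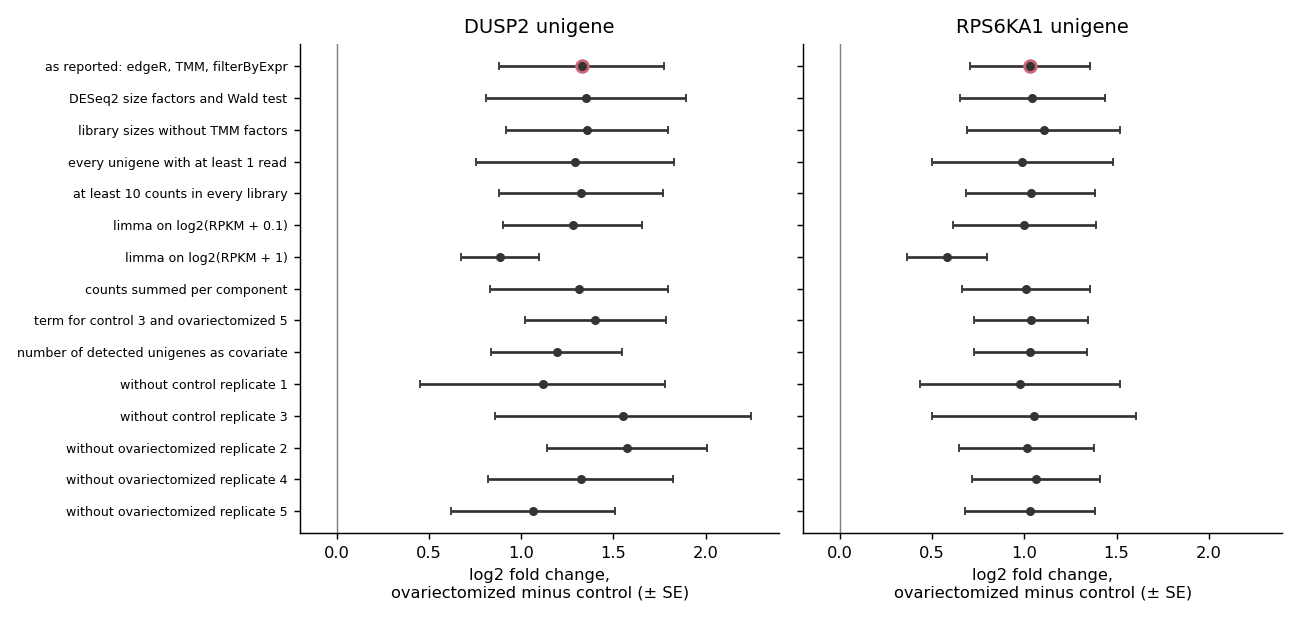
Log2 fold change (ovariectomized minus control, ± standard error) of DUSP2 (left) and RPS6KA1 (right) as reported (red, top) and under 14 other settings of the fit. All values lie above 0, between 0.88 and 1.57 for DUSP2 and between 0.58 and 1.10 for RPS6KA1.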

How the data were processed

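One polyA library per ewe was sequenced from 2 control and 3 ovariectomized animals. The submitters' processing notes name CASAVA 1.8 and Bowtie 0.12.8, and the authors assembled unigenes with Trinity after removing adapters and low quality reads. The authors deposited raw read counts per unigene, mapped as single ends, RPKM values, and, in other columns, unigene lengths in bp and the adjusted p-value from the study's own test, which was not used. How reads mapping to several unigenes were counted is not given in the sources used here. The table held 0 further per-sample columns. Groups and replicate numbers came from the sample titles, symbols from the study's primer list (21 of its 22 symbols are in the RefSeq table).

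The members, the gene lists and the alternatives were chosen with earlier results of these data known. Counts were fitted with edgeR 4.0.16 in R 4.3.3 (filterByExpr, TMM, two-sided quasi-likelihood test, adjusted by Benjamini-Hochberg over 39543 unigenes). The standard error is the log2 fold change divided by the square root of F. Every unigene was not used as the main fit because its prior degrees of freedom were infinite, so that a unigene's own spread would not enter its test. Alternatives were DESeq2 1.42.0, limma 3.58.1 on log2 RPKM with pseudocounts of 0.1 and 1, other filters, no TMM factors, sums per component, covariates and each library left out. The p-values of the main fit set the difference between the groups against the modelled spread between ewes. The named unigenes were the members, other unigenes of their components, MAPK, Ras, JNK and lymphocyte genes of the primer list or annotation, and those with the most similar profile. Summaries were computed with pandas 2.3.3 and scipy 1.17.1 in Python 3.11.15, and plots were drawn with matplotlib 3.10.9.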

Additional observations from a re-analysis of the deposited data

How the results depend on the processing

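The direction of both members was kept in all 17 alternatives computed for each, of which 3 (single pairs or subsets of libraries and the ratio of mean RPKM) were chosen after seeing the data. With groups that did not overlap, in genes chosen for this difference, leaving out libraries could hardly reverse it. The sums per component left the counts of both members unchanged. The kept direction is therefore no support for the difference. All 17 values of DUSP2 lay within the pooled standard deviation within groups of 0.45 on the log2 scale. For RPS6KA1 that value was only 0.064, and 3 fold changes moved by more. They were 1.10 without TMM factors, 0.58 with limma on log2(RPKM + 1) and 1.11 as the ratio of mean RPKM. The 0.064 lay under counting error. On the TMM scale the coefficients of variation of RPS6KA1 were 3.34% (control) and 4.90% (ovariectomized), against 11.2% and 7.70% from counting. It is therefore no measure of the spread between ewes and a narrow limit for these moves. With 1 library left out the log2 fold change ran from 1.06 to 1.57 for DUSP2 and from 0.98 to 1.06 for RPS6KA1. The edgeR, DESeq2 or limma adjusted p of both members was 1.0 in every fit. The number of unigenes with an adjusted p under 0.05 was 0 as reported and 26 with DESeq2, 527 on every unigene with at least 1 read, 2 and 3 with limma at pseudocounts of 0.1 and 1, and 0 to 104 with 1 library left out, the 104 arising without control 3. Where a control ewe is left out the lone control library is assumed to vary like the ovariectomized ones. The cause was not tested. No paired analysis was possible because the groups share no replicate number.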
